A study of Homo sapiens with 4 samples.

Results

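Plexins are cell-surface receptors for semaphorins, and the RNA of 10 genes of this system was followed in K562/G01, an imatinib-resistant subline of K562, an established chronic myeloid leukemia cell line. The genes are the plexins PLXNA1, PLXNA2, PLXNA3, PLXNB1 and PLXNB2, the semaphorins SEMA3F, SEMA4C and SEMA4D, and the neuropilins NRP1 and NRP2. All 10 were found by symbol among the 28482 genes of the deposited table. They were chosen by measured values, because PLXNA2 was higher and SEMA3F lower with TCF7 knockdown, so the knockdown values of these 10 genes are a description with no test, and nothing is supported with them.

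The cells had been infected with a lentiviral hairpin that targets TCF7, a DNA-binding factor of Wnt signalling, or with a scramble hairpin. Each was given imatinib, an inhibitor of the BCR-ABL1 kinase, at 1 µM for 48 hours or was left without it. This makes 4 groups with 1 library each: knockdown and scramble cells under imatinib, and knockdown and scramble cells without it. All 4 share the lentiviral infection and the selected resistance. Whether each culture had its own infection is not stated in the labels, so a lasting difference between the knockdown and scramble cultures cannot be told apart from an effect of TCF7.

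Semaphorins are secreted or membrane-bound ligands first known from axon guidance. Class 3 semaphorins such as SEMA3F are secreted and mostly bind a neuropilin, which forms a receptor complex with a class A plexin, whereas class 4 semaphorins bind class B plexins directly. An activated plexin acts through its GTPase-activating domain on small GTPases and so on integrin adhesion and the actin cytoskeleton. In blood cells the system is known for lymphocyte activation and cell migration, with SEMA4D a semaphorin of T cells.

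Because the depleted factor binds DNA, promoter sequence of the 2 genes that led to the choice is shown first. TCF/LEF proteins are known to bind a short motif, for which the letters CTTTGAA were searched, or CTTTGAT in their place, or CTTTGTA in their place, or CTTTGTT in their place, on both strands. The search used the 250 bases before each RefSeq gene start (GRCh38.p14). The windows below run 5′ to 3′ on the strand of the gene, and capitals mark a match. PLXNA2 has 1 window, on the minus strand at chr1:208244385-208244634. SEMA3F has 3 windows on the plus strand, of which the one furthest upstream, at chr3:50154808-50155057, and the one furthest downstream, at chr3:50158769-50159018, are shown.
PLXNA2: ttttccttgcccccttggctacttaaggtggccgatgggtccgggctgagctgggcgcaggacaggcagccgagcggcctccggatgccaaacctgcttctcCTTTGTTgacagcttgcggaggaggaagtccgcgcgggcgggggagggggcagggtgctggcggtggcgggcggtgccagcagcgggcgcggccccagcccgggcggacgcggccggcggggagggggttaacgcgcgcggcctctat
SEMA3F upstream: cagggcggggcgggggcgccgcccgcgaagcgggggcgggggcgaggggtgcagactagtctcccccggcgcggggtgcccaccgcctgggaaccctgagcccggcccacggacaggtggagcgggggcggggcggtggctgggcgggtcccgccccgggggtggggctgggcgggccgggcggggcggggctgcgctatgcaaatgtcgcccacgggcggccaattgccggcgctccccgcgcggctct
SEMA3F downstream: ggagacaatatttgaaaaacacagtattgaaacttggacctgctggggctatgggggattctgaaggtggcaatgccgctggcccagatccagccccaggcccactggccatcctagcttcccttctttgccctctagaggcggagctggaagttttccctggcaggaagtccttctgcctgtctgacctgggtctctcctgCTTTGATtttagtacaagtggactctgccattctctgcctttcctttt

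The PLXNA2 window holds CTTTGTT, which begins 148 bases before the start. The downstream SEMA3F window holds CTTTGAT, which begins 48 bases before its start, while the upstream one holds no match. The downstream window lies within the span of SEMA3F in GENCODE release 29 (50155045 to 50189075). In all, 4 of 12 windows of the 9 genes with a window held a match, the others being those of PLXNA1 and PLXNB1, and 11.96% of all 35116 RefSeq windows of this length did. A match is a description of the letters, and nothing follows from it for binding.

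The deposited counts summed to between 30634832 and 34095585 per library. The targeted gene TCF7 had 117 counts in the knockdown library against 367 in the scramble library under imatinib, and 78 against 339 without it. All 9 markers of the K562 line were at a mean of 1 CPM (deposited counts scaled to the library total) or more, with a summed level of 2208 to 2667 CPM. Of fibroblast and macrophage markers 0 of 5 each were. The fibroblast sum was 2.27 and 2.51 CPM in the knockdown libraries with and without imatinib, against 0.792 and 1.03 CPM in the scramble libraries. In the same order COL1A1, a collagen gene, had 32 and 42 counts against 7 and 5, and DCN, a matrix proteoglycan gene, 24 and 10 against 5 and 16, so not every marker was higher with knockdown in both pairs. Of the endothelial markers, PECAM1 had 27.3 and 29.5 CPM in the knockdown libraries against 41.8 and 46.8 CPM in the scramble libraries, and VWF had at most 3 counts. Of the lymphocyte markers, CD3D had 14.0 to 20.8 CPM, and CD3E and CD2 had at most 5 counts. The part of these markers in the results was not tested.

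Plexin and semaphorin transcripts were present at very unequal levels, and neuropilins were nearly absent. Of the 10 genes, 8 passed the expression filter of 1 CPM in at least 2 libraries, and each of these reached 1 CPM in all 4 libraries. The levels of different genes are compared here per length, as the authors' deposited FPKM, which is a level without a stated error. PLXNA1, a co-receptor of neuropilins for class 3 semaphorins, stood highest with 24.7 and 25.2 FPKM in the knockdown and scramble libraries with imatinib and 16.5 and 20.5 FPKM in those without. That was 57.7%, 54.6%, 51.3% and 53.3% of the summed FPKM of the 9 plexins in the table. PLXNB2, the receptor of SEMA4C, followed with 7.42 to 9.67 FPKM. SEMA4C, a membrane-bound ligand, had 2.64 to 4.70 FPKM and SEMA4D 1.17 to 1.93 FPKM. SEMA3F had 0.261 to 0.669 FPKM and PLXNB1, the high-affinity receptor of SEMA4D, 0.254 to 0.426 FPKM, and the ranges of these neighbours overlapped.

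The neuropilins were below the filter. NRP1, a co-receptor for class 3 semaphorins and VEGF, had 20 counts in the knockdown library against 16 in the scramble library under imatinib, and 20 against 11 without it. All 4 levels lay between 0.332 and 0.653 CPM, and the log2 ratios of knockdown over scramble had counting intervals that included 0, from -0.58 to 1.49 with imatinib and from -0.15 to 2.19 without. NRP2, the preferred neuropilin of SEMA3F, had 0 counts in the knockdown library with imatinib and 1 in each other library, where an exact Poisson interval on 0 counts reaches 0.116 CPM. No ratio is given for it. In bulk RNA, fewer cells with a transcript and less of it per cell cannot be told apart.

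**Figure D1:**
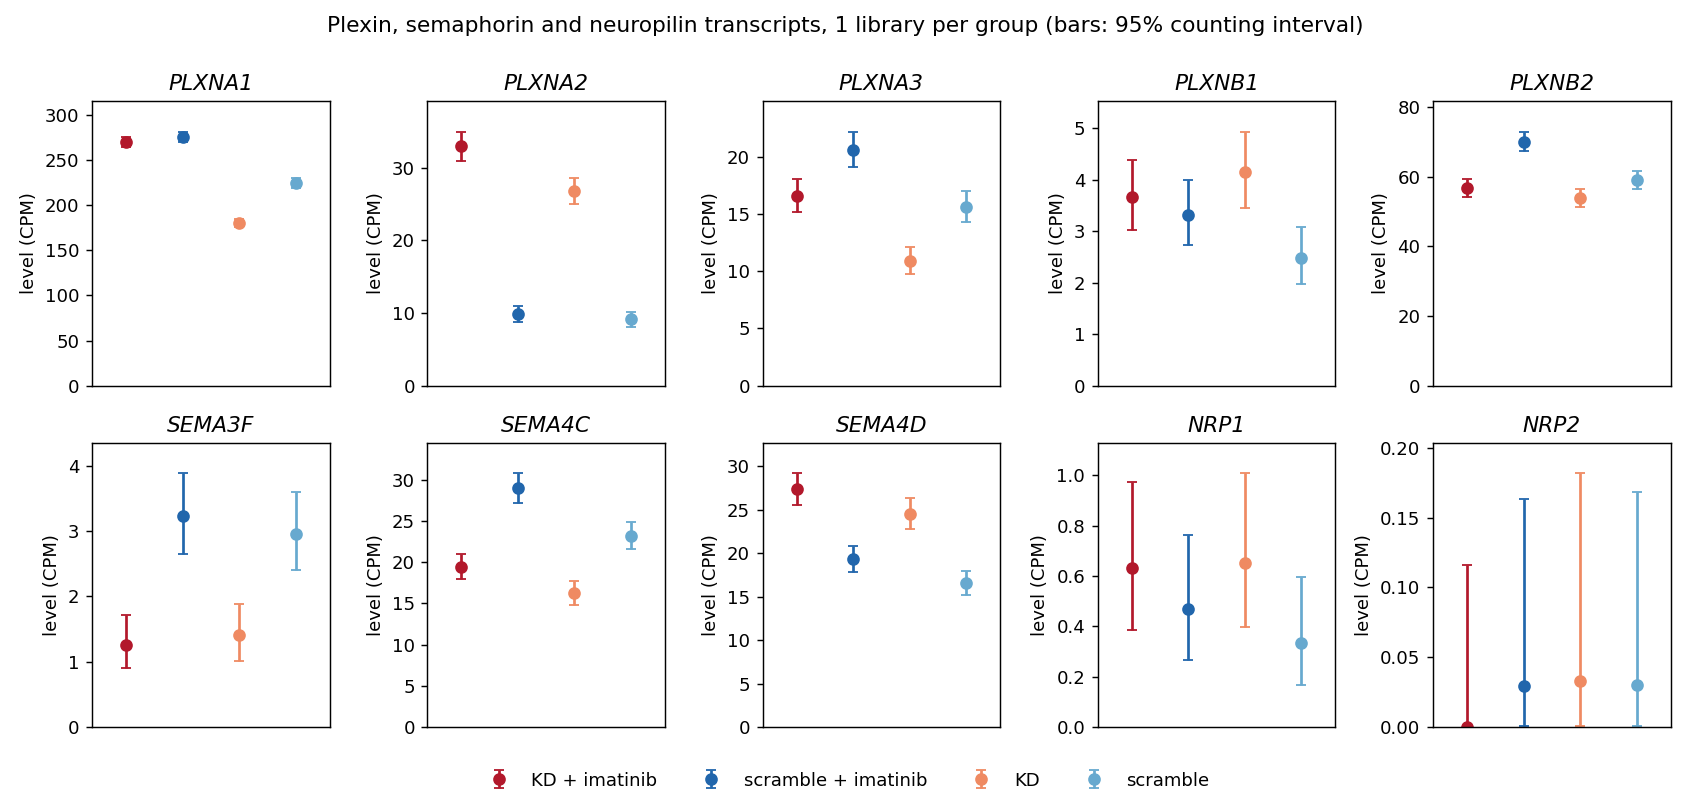
Level (CPM, linear axes from 0) of the 10 genes in knockdown and scramble libraries under imatinib (left pair) and without it (right pair), 1 point per library, with bars for the 95% Poisson counting interval. PLXNA2 stood at 32.9 and 26.7 CPM in the knockdown libraries and at 9.83 and 9.11 CPM in the scramble libraries.

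**Figure D2:**
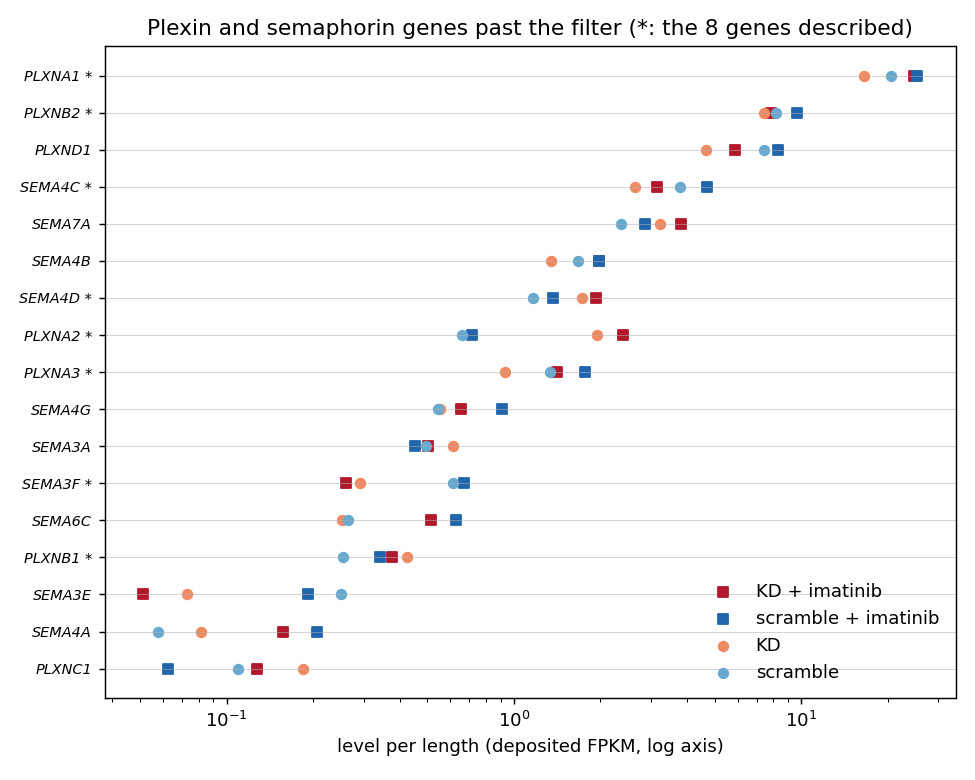
Level per length (deposited FPKM, log axis) of the 17 plexin and semaphorin genes past the filter, 1 point per library, with the 8 genes described starred. PLXNA1 lies highest in every library, and PLXNA2 changes place with PLXNA3 between the knockdown and scramble libraries.

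The choice rested on the knockdown contrast, and there PLXNA2 was about 3 times as high in knockdown as in scramble cells in both imatinib states. PLXNA2, a receptor for class 3 and class 6 semaphorins (ENSG00000076356.6; GRCh38 chromosome 1, 208022242 to 208244320), had 819 counts in the knockdown library against 302 in the scramble library without imatinib, and 1045 against 335 with imatinib. These are 26.7 CPM (95% Poisson interval 24.9 to 28.6) against 9.11 CPM (8.11 to 10.2), and 32.9 CPM (30.95 to 34.98) against 9.83 CPM (8.80 to 10.9). Both knockdown libraries thus lay above both scramble libraries. The log2 ratios were 1.55 (95% counting interval 1.37 to 1.76) without imatinib and 1.76 (1.58 to 1.95) with imatinib, or 2.94-fold and 3.38-fold. Per length, PLXNA2 lay above PLXNA3 in the knockdown libraries (2.39 against 1.42 FPKM with imatinib and 1.94 against 0.928 FPKM without) and below it in the scramble libraries (0.713 against 1.76 and 0.661 against 1.33 FPKM). PLXNA2 made up 5.58% and 6.05% of the summed plexin FPKM in the knockdown libraries with and without imatinib, against 1.54% and 1.72% in the scramble libraries. The summed fibroblast markers were also higher in the knockdown libraries, at the low levels given above, and their part in the PLXNA2 difference was not tested.

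SEMA3F, a secreted ligand (ENSG00000001617.11; chromosome 3, 50155045 to 50189075), was lower in both knockdown libraries. It had 43 counts in the knockdown library against 98 in the scramble library without imatinib, and 40 against 110 with imatinib. The levels were 1.40 and 1.26 CPM in the knockdown libraries without and with imatinib, against 2.96 and 3.23 CPM in the scramble libraries, and the 2 pairs of intervals did not overlap. The log2 ratio was -1.03 (-1.62 to -0.54) without and -1.30 (-1.90 to -0.80) with imatinib. The antisense gene SEMA3F-AS1 shares 110 exon bases with it and had 2 to 10 counts, and since the strand setting of the counting is not stated, reads of that stretch cannot be assigned with certainty.

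PLXNA2 was thus the single gene of the 8 at 2-fold or more higher in both pairs, where 0.391% of 13296 genes were, and SEMA3F the single one at 2-fold or more lower, where 0.564% were. These counts follow from the choice of the genes, and nothing is read from them. The SEMA3F count is lost under some settings, since with a trend over GC content and length removed its ratio without imatinib was -0.95. Of the other 6 genes, SEMA4D and PLXNB1 were higher with knockdown, and PLXNA1, PLXNA3, PLXNB2 and SEMA4C lower, each in both pairs. The median log2 ratio of the 8 genes was -0.22 without and -0.15 with imatinib, against 0.00 and 0.02 over all genes tested. The sign was the same in both pairs for 8 of 8, as for 62.5% of all genes tested. With imatinib the counting intervals of PLXNA1 and PLXNB1 included 0, so their signs there are uncertain. Nothing is read from these values either, since the genes were chosen on this contrast.

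The ligand SEMA4D had 24.5 CPM in the knockdown library against 16.5 CPM in the scramble library without imatinib, and 27.3 against 19.3 CPM with imatinib. Its log2 ratios of 0.57 (0.42 to 0.74) and 0.52 (0.37 to 0.67) were nearly equal in the 2 states. SEMA4C showed the opposite, with 16.3 against 23.2 CPM without imatinib and 19.4 against 28.9 CPM with it. Its log2 ratios were -0.51 (-0.67 to -0.34) and -0.55 (-0.70 to -0.41). The 2 class 4 ligands thus stood further apart in scramble cells, where SEMA4C had 3.77 FPKM and SEMA4D 1.17 FPKM without imatinib, than in knockdown cells, where they had 2.64 and 1.73 FPKM.

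The receptors of these ligands showed smaller or less even ratios. PLXNB1 had 127 counts in the knockdown library against 82 in the scramble library without imatinib, and 116 against 113 with imatinib. The log2 ratio was 0.74 (0.34 to 1.17) without imatinib and 0.16 (-0.23 to 0.55) with it, and the lowest level, 2.47 CPM (1.97 to 3.07) in the scramble library without imatinib, overlapped in its interval with the 3.31 CPM (2.73 to 3.98) of the scramble library with imatinib. PLXNB2 had 53.9 against 59.0 CPM without imatinib and 56.7 against 70.2 CPM with imatinib, and log2 ratios of -0.12 (-0.22 to -0.03) and -0.29 (-0.38 to -0.20). Among the class A plexins, PLXNA3 had 10.9 against 15.6 CPM without imatinib and 16.6 against 20.6 CPM with it, with log2 ratios of -0.51 (-0.72 to -0.31) and -0.29 (-0.46 to -0.13). PLXNA1 had 180 against 225 CPM without imatinib and 271 against 276 CPM with imatinib, with log2 ratios of -0.31 (-0.36 to -0.26) and -0.01 (-0.05 to 0.03).

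**Figure D3:**
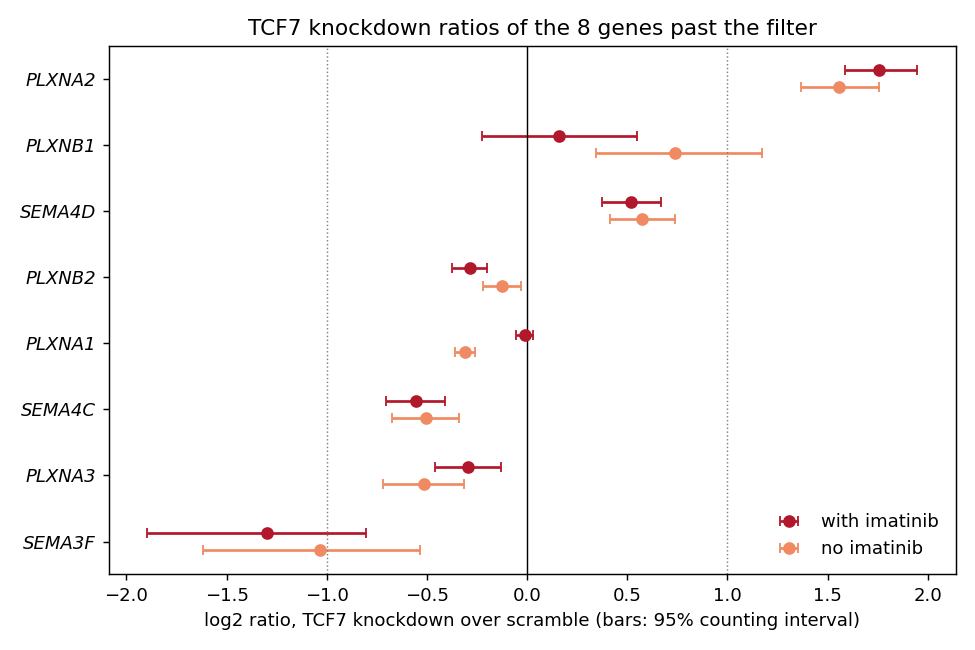
Log2 ratio of TCF7 knockdown over scramble for the 8 genes past the filter, with imatinib (upper point of each pair) and without (lower point). Bars are 95% counting intervals and dotted lines mark 2-fold. PLXNA2 lies at 1.76 and 1.55 and SEMA3F at -1.30 and -1.03.

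The difference between the knockdown ratios, with imatinib minus without, could not be tested with 1 library per group. Its counting interval lay away from 0 for PLXNA1 (0.30, 0.23 to 0.36), PLXNB1 (-0.58, -1.13 to -0.03) and PLXNB2 (-0.16, -0.29 to -0.03). For PLXNA2 it was 0.20 (-0.06 to 0.46) and for SEMA3F -0.26 (-0.996 to 0.47). With the trend over GC content and length removed, that of PLXNA1 was 0.08, that of PLXNB1 -0.80 and that of PLXNB2 -0.40.

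By the smallest distance over the log2 ratios of the other 3 libraries to the scramble library, and among protein-coding genes averaging at least 5 CPM, those with a pattern most like PLXNA2 were SPARC (distance 0.37), AIM1 (0.38) and TRANK1 (0.48). Those most like SEMA3F were JAG1 (0.12), ITGB4 (0.14) and SLC1A4 (0.18). JAG1, a Notch ligand, had log2 ratios to the scramble library of -1.15 under imatinib with knockdown, -0.0054 under imatinib with scramble and -1.002 in the knockdown library.

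The imatinib contrast did not enter the choice of the genes and was tested with edgeR's quasi-likelihood test in a fit with terms for knockdown and imatinib over all 4 libraries. Its error comes from 1 residual degree of freedom and information shared across genes. With 1 library per group, that degree of freedom holds only how far the 4 libraries depart from additive effects. The p-values therefore measure no spread between replicate cultures. PLXNA1 and PLXNA3 rose with imatinib, 0 of the 8 genes fell and 6 were not called. Over all 13296 genes 13.8% were called higher and 7.08% lower. PLXNA1 had 271 CPM with imatinib against 180 CPM without it in knockdown cells and 276 against 225 CPM in scramble cells, with both libraries with imatinib above both without. The log2 fold change was 0.43 (SE 0.0745, edgeR adjusted p = 8.55e-05), and it was higher in 2 of 2 pairs. PLXNA3, a receptor for SEMA3F with NRP2, had 16.6 against 10.9 CPM in knockdown cells and 20.6 against 15.6 CPM in scramble cells. The libraries with imatinib lay above the others. Counting intervals overlapped, though, between the knockdown library with imatinib (15.2 to 18.1 CPM) and the scramble library without it (14.3 to 17.0 CPM). The log2 fold change of PLXNA3 was 0.49 (SE 0.138, edgeR adjusted p = 0.0100), higher in 2 of 2 pairs. Its exons share 11 bases with LAGE3 on the opposite strand, and LAGE3 had 278 against 79 counts in knockdown and 230 against 147 in scramble cells. In DESeq2, PLXNA1 was called (adjusted p = 0.000897) and PLXNA3 was not (adjusted p = 0.1002). With any 1 of the 4 libraries left out and imatinib as the sole factor, since no residual degree of freedom is then left for both factors, 0 of the 8 genes were called by edgeR, with 1 to 4 at an unadjusted p under 0.05. With all 4 libraries and imatinib as the sole factor, 0 were called as well, with 2 at an unadjusted p under 0.05.

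The other 6 genes were not called for imatinib. SEMA4C had log2 ratios of 0.25 in knockdown and 0.30 in scramble cells (log2 fold change 0.28, SE 0.119, edgeR adjusted p = 0.0909), PLXNA2 0.30 and 0.09, SEMA4D 0.15 and 0.21 and PLXNB2 0.07 and 0.23. PLXNB1 had -0.18 and 0.40 and SEMA3F -0.15 and 0.11, and for both each counting interval included 0. The edgeR adjusted p of these genes other than SEMA4C lay between 0.208 and 0.993. The median log2 ratio of the 8 genes was 0.20 in knockdown and 0.26 in scramble cells, against 0.01 and -0.01 over all genes tested.

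These values moved with GC content. The 8 genes had a median GC content of 60.998% in their longest GENCODE transcript, against 47.3% over all genes tested. The Spearman correlation of GC content with the imatinib ratio was, across 10095 genes (genes are no independent replicates), 0.75 in knockdown and 0.68 in scramble cells. With the trend over GC content and length removed, the medians of the 8 genes were -0.11 and 0.01. When the trend of each library was entered as an offset in edgeR, PLXNA1 had a log2 fold change of 0.02 (SE 0.0610, edgeR adjusted p = 0.911) and PLXNA3 0.24 (SE 0.126, edgeR adjusted p = 0.327), and neither was called. PLXNB2 was instead called lower, with -0.31 (SE 0.0744, edgeR adjusted p = 0.00173), where 2.11% of all genes were called higher and 2.23% lower. Without offsets PLXNB2 had 0.15 (SE 0.0868, edgeR adjusted p = 0.208), so its direction depends on this correction. Whether the trend is technical was not tested.

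**Figure D4:**
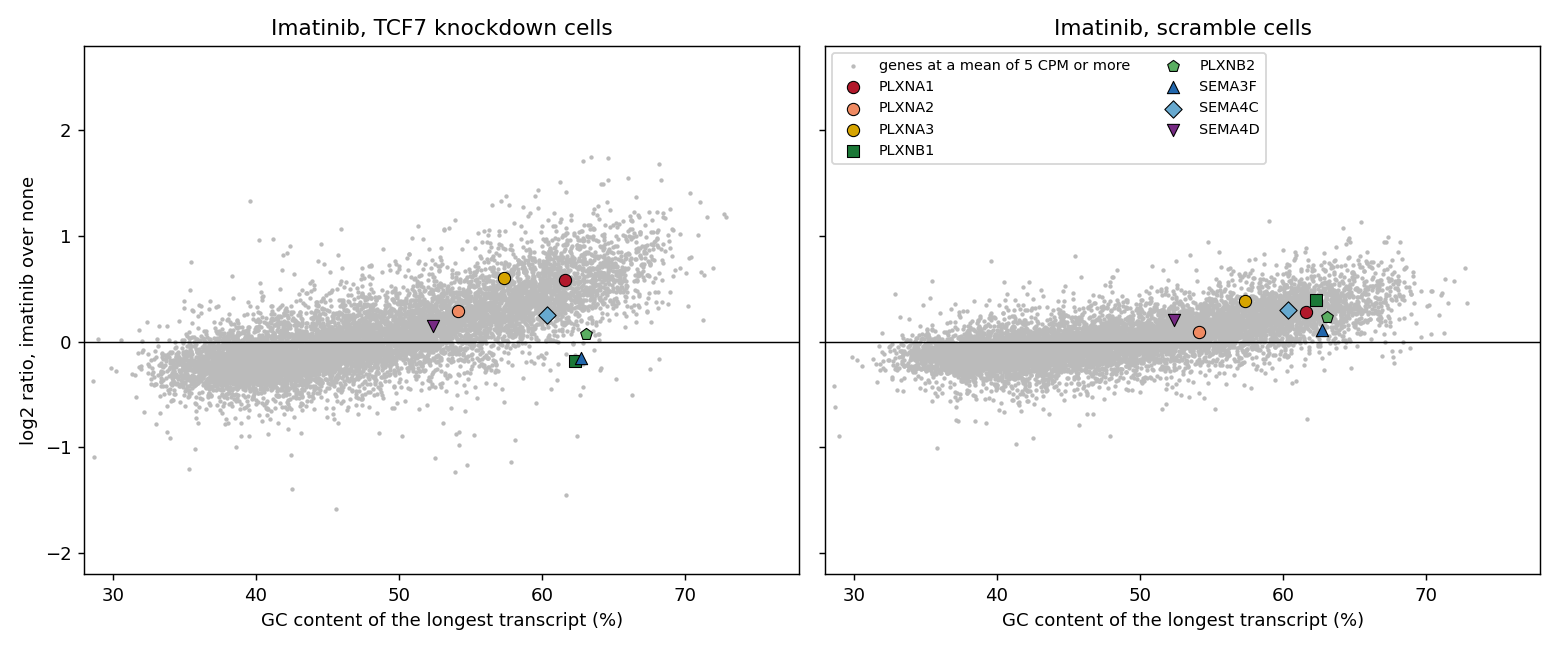
GC content of the longest transcript (%) against the log2 imatinib ratio, in knockdown cells (left) and scramble cells (right), for genes averaging at least 5 CPM (grey) and the 8 plexin and semaphorin genes (symbols, shown at any level). The ratio climbs with GC content (Spearman 0.75 and 0.68), and PLXNB1, PLXNB2 and SEMA3F lie below most genes of like GC content in knockdown cells.

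**Figure D5:**
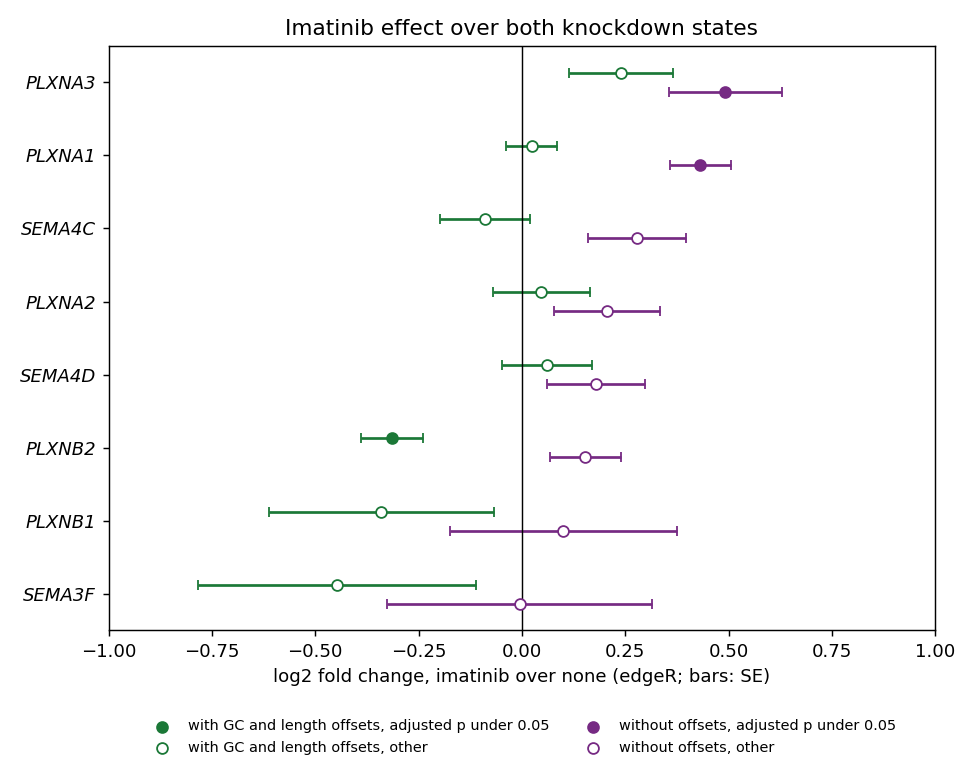
Log2 fold change of imatinib over none across both knockdown states (edgeR, bars SE) for the 8 genes, with GC and length offsets (upper point of each pair) and without (lower point). Filled points passed an adjusted p under 0.05. PLXNA1 and PLXNA3 are filled without offsets, and PLXNB2 with them.

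Other genes of the pathway came from 5 lists with 84 genes, of which 50 passed the filter. With knockdown 3 were called higher, 5 lower and the remaining 42 were not called, or 16% called in all, against 3.8% called higher and 3.34% lower over all genes. Of the 8 called, SEMA3E and CD72 passed the filter through a single arm, where they are high. Among the 48 genes that reached 1 CPM in a library of each arm, 2 rose and 4 fell (12.5% called). DESeq2 called 3 of the 50, edgeR with GC and length offsets 13, which include all 8, and edgeR with knockdown as the sole factor 0 on all 4 libraries (10 at an unadjusted p under 0.05) and 0 to 3 with any 1 library left out. Among the other plexins PLXND1, the receptor of SEMA3E and one of the more abundant plexins, fell. It had 1816 counts in the knockdown library against 2756 in the scramble library under imatinib, and 1394 against 2401 without, with log2 ratios of -0.48 and -0.66 (edgeR adjusted p = 1.55e-05). PLXNC1, the receptor of SEMA7A, was not called (0.98 with and 0.73 without imatinib, edgeR adjusted p = 0.221). Of the other semaphorins 7 of 17 passed the filter. SEMA3E, which binds PLXND1 without a neuropilin, had 11 counts against 44 with imatinib and 15 against 56 without. It passed the filter only through the scramble libraries, so it had to differ, and its call is not counted as a fall. The other 6 were not called.

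Of 8 tested co-receptors and other receptors, the adhesion molecule NRCAM fell. CD72, a SEMA4D receptor of B cells, had 41 counts in the knockdown library against 10 in the scramble library with imatinib, and 36 against 14 without. It passed the filter only through the knockdown libraries, so it had to differ, and its call is not counted as a rise. NRCAM had 283 against 382 counts with imatinib and 153 against 391 without (edgeR adjusted p = 0.00873), log2 ratios of -0.31 and -1.22. VEGFA, a neuropilin ligand, fell as 1 of 3 tested ligands, with 875 against 2358 counts with imatinib and 1327 against 2444 without (edgeR adjusted p = 5.11e-09). Of 30 signalling partners 2 rose and 1 fell. DPYSL2, a cytosolic mediator of SEMA3A signalling, had log2 ratios of 0.52 with and 0.45 without imatinib (edgeR adjusted p = 0.00287), the GTPase RAC1 0.33 and 0.32 (edgeR adjusted p = 0.00306), and RRAS2, a relative of the plexin substrate R-Ras, -0.47 and -0.34 (edgeR adjusted p = 0.00855).

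With imatinib 10 of these 50 genes were called higher and 4 lower, where 13.8% and 7.08% of all genes were. With the GC and length offsets 1 was called higher and 4 lower, where 2.11% and 2.23% of all genes were, and 2 of the 14 genes called without offsets, LIMK1 and VEGFA, were among these 5. DESeq2 called 3, and edgeR with imatinib as the sole factor 0 on all 4 libraries (15 at an unadjusted p under 0.05) and 0 with any 1 library left out (5 to 13 at an unadjusted p under 0.05). Of the 10 called higher, SEMA4A passed the filter only through the libraries with imatinib, where it had 34 counts against 17 in knockdown and 48 against 13 in scramble cells, so it had to differ and its call is not counted as a rise. Among the 49 genes that reached 1 CPM in a library of each arm, 9 rose and 4 fell (26.5% called). SEMA6C had log2 ratios of 0.99 in knockdown and 1.19 in scramble cells and rose (edgeR adjusted p = 0.0129), but was not called with the offsets (edgeR adjusted p = 0.337). LIMK1, a kinase that phosphorylates cofilin, had 0.88 and 0.47 (edgeR adjusted p = 0.000842) and was called with the offsets too (edgeR adjusted p = 0.00574). PIP5K1C, a lipid kinase of adhesion sites, had 0.69 and 0.41 (edgeR adjusted p = 3.75e-05; 0.776 with the offsets). CDK5 (0.66 and 0.46), GIPC1 (0.59 and 0.27), ARHGEF11, which binds class B plexins (0.34 and 0.29), ERBB2 (0.66 and 0.35) and the syndecan SDC3 (0.74 and 0.17) also rose, and none of these 5 was called with the offsets, where the fold change of GIPC1 was -0.11. VEGFA fell (-0.66 and -0.11, edgeR adjusted p = 0.00907; 6.72e-09 with the offsets). RAP1A, a GTPase that plexins inactivate, fell (-0.39 and -0.24, edgeR adjusted p = 0.00929), but was not called with the offsets (edgeR adjusted p = 0.312). PLXNC1 (-0.52 and -0.77) and PLXND1 (0.33 and 0.14, edgeR adjusted p = 0.0504) were not called, while with the offsets PLXND1 was called lower, with a log2 fold change of -0.25 (edgeR adjusted p = 0.0233), so its direction depends on this correction.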

How the data were processed

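RNA depleted of ribosomal RNA was sequenced with a strand-keeping kit (per the labels' protocols), with 1 library for each of 4 groups. The submitters' processing notes name HISAT2, HTSeq 0.6.1 and GRCh38; neither the annotation nor the strand setting of the counting is stated there. The authors deposited whole-number read counts per gene, FPKM columns and log2 columns of 1 plus FPKM, per the file headers. As deposited, the FPKM columns were handled as a score, because 6 genes have negative values, and the deposited log2 columns were not used.

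Counts were scaled with TMM. Ratios used a prior count of 2, and their 95% intervals are exact binomial ones of the 2 counts; those of single levels are exact Poisson ones, and those of differences between ratios use a normal approximation. All cover counting error only. Genes at 1 CPM in at least 2 libraries (13296) were tested in an additive design with edgeR 4.0.16 under R 4.3.3, Benjamini-Hochberg adjusted, called under 0.05; its SE is the log2 fold change over the root of F. The fit was tested on data simulated with neither a GC trend nor an interaction, so that test does not cover either feature. The simulated spread between libraries was set close to the one fitted here, so that test cannot tell whether the fitted spread is right. DESeq2 1.42.0 was an alternative. GC content and length came from the longest transcript of GENCODE release 29, on the same build, and their trend (13255 genes) was fitted per library with mgcv 1.9.3; removing it from a ratio subtracts the difference of the 2 trends.

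Genes and lists were chosen with earlier results of these data known. The text names the 10 genes, TCF7, the pathway genes called (up to 6 per list and factor with the largest change, otherwise the 2 largest) and the 3 genes nearest in pattern to PLXNA2 and to SEMA3F. Alternatives were other scalings, filters and prior counts, deposited FPKM plus 0.1, GC and length corrections, a fold limit of 1.5, fits with 1 factor alone, and fits leaving out each library.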

Additional observations from a re-analysis of the deposited data

How the results depend on the processing

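No paired analysis was possible because the labels give no replicate numbers to pair by; the additive fit compares each factor within the levels of the other. Of the 10 genes, 8 were tested and 2 of these were called for imatinib. This was 1 in DESeq2 (PLXNA1) and 1 with GC and length offsets (PLXNB2). It was 0 without the knockdown term on all libraries (edgeR, 2 at an unadjusted p under 0.05). Over all 13296 genes tested 2780 were called for imatinib (13.8% higher and 7.08% lower) and 949 for knockdown (3.8% higher and 3.34% lower). In DESeq2 these were 1003 and 272, with the offsets 576 and 1633, without the other factor 0 and 0 (edgeR, 2651 and 818 at an unadjusted p under 0.05), and with a library left out 0 to 579 and 34 to 759. Of the pathway genes, 14 for imatinib and 8 for knockdown became 3 and 3 in DESeq2, 5 and 13 with the offsets, 0 and 0 without the other factor (15 and 10 at an unadjusted p under 0.05), and 0 to 0 and 0 to 3 with a library left out (5 to 13 and 4 to 15 at an unadjusted p under 0.05).

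The knockdown ratios of PLXNA2 and SEMA3F stayed within their counting intervals under all 5 settings tried, but the 1 gene at 2-fold or more lower in both pairs became 0 on deposited FPKM and 0 with the trend removed. Those of PLXNA1 and PLXNB2 left their counting intervals with the trend removed. PLXNA1 then had -0.19 without and -0.10 with imatinib, and PLXNB2 -0.0086 and -0.41. With the offsets the imatinib fold changes of PLXNB2 (-0.31), PLXNB1 (-0.34) and SEMA4C (-0.090) turned negative. That of SEMA3F, -0.0056, was 0.0049 on total counts and 0.029 without the knockdown term. With a library left out, imatinib fold changes ran from -0.88 to 1.23 for PLXNA2, -0.26 to 0.49 for PLXNB1, -0.78 to 0.65 for SEMA3F, -0.023 to 0.56 for SEMA4C and -0.10 to 0.50 for SEMA4D; all fits with a library left out have 1 factor alone, so the other factor's change enters them. Counts of 40 to 127 limit SEMA3F and PLXNB1, and NRP2 was near the detection limit. The pathway counts above include SEMA3E and CD72 for knockdown and SEMA4A for imatinib, which passed the filter through a single arm.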

Other observations

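The genes next to PLXNA2 and SEMA3F on their chromosomes, looked up after the values were seen, did not share one direction. Of the 3 tested genes on either side of PLXNA2, CD46 and C1orf74 were called higher for knockdown. Over all genes tested 3.8% were called higher and 3.34% lower, and nothing is read from these calls. CD46, a complement regulator, had knockdown log2 ratios of 0.14 with and 0.34 without imatinib (edgeR adjusted p = 0.0334). C1orf74 had 0.50 and 0.53 (edgeR adjusted p = 0.0482). The others were not called. LAMB3, a laminin subunit at a mean of 1.71 CPM, had -0.40 and -1.05 (edgeR adjusted p = 0.291). DIEXF had -0.28 and -0.10, CDCA4P4 -0.02 and -0.01, and C1orf132 0.08 and 0.13. Of those around SEMA3F, GNAI2, which encodes a G protein subunit and was the nearest tested gene on one side, rose with 0.68 and 0.46 (edgeR adjusted p = 2.22e-05). The rest around SEMA3F were not called. RBM5 on the other side had 0.04 and 0.11 (edgeR adjusted p = 0.669), and RBM6 had 0.01 and -0.09. MON1A had 0.04 and -0.56, IFRD2 0.15 and -0.28, and HYAL3 0.52 and 0.22. PLXNB1, like SEMA3F on chromosome 3 (48403854 to 48430051), was higher with knockdown where SEMA3F was lower. With imatinib, though, the log2 ratio of PLXNB1 was 0.16 with a counting interval of -0.23 to 0.55. Both genes belong to the set chosen on this contrast, and nothing is read from their directions.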
